A study of Drosophila melanogaster with 8 samples.

Results

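Glycolysis splits glucose into pyruvate in the cytosol, and lactate dehydrogenase or the mitochondrial pyruvate dehydrogenase complex then decides where that pyruvate goes. Pyruvate dehydrogenase kinase phosphorylates and switches off the complex, which keeps pyruvate out of the citric acid cycle. In flies, macrophage-like blood cells are known to raise glycolysis when they are activated by infection. The genes described here are glycolysis enzymes with the lactate and pyruvate switch genes, chosen from a list of 10 symbols looked up in the platform annotation. Of these 10 genes, 7 had a probe set that the annotation assigns to them alone: Hex-A, Pfk, Tpi, Gapdh1, Pgk, Eno and Pdk. They are 7 of 11953 named genes and were measured by 8 of 18769 probe sets, 2 of them for Pdk, and 7 of the 8 had a mean level above the filter on dim values described below. Gapdh2, PyK and Ldh were not analysed here, so the last glycolytic step and the lactate branch are not described.

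The cells were S2 cells, a Drosophila melanogaster line with blood cell features, grown in serum-containing Schneider's medium. All of them first received a double-stranded RNA (dsRNA), either non-specific (control) or against dSTING, the fly homologue of the STING receptor for cyclic dinucleotides. After 3 days they were transfected with a 90-mer double-stranded DNA (dsDNA) or mock transfected with lipofectamine only, and they were lysed 24 hours later. Biotin-labelled RNA was read on Affymetrix arrays, 2 for each of 4 groups: control cells with mock transfection or dsDNA, and dSTING RNAi cells with either. Titles and source names set the groups, because the genotype tag of 4 samples gives the DNA treatment in place of the RNAi. The design asks how dSTING knockdown changes expression in dsDNA-treated cells. It is a partial knockdown in 1 line: Sting intensity was 48.7 to 53.1 in the 4 control arrays and 3.45 to 8.05 in the 4 RNAi arrays, so these levels follow the titles.

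The deposited values are linear intensities with a floor of 1, at which 19.6% to 24.1% of an array's values lie, and the array medians were 1.18 to 1.22. Blood cell markers were detected for 7 of 12 genes above a log2 level of 3, where log2 levels are log2(intensity + 1) averaged over the 8 arrays. Of the measured markers of other cell types, 0 of 4 for fat body, 0 of 4 for muscle, 0 of 4 for neurons and glia and 0 of 2 for gut lay above it, and 1 of 4 for germline and follicle (tud). The blood cell genes Hml, eater, Pxn, PPO2 and He lay below it. On the leading principal component of the 4189 probe sets above that level (52.1% of their variance), array number 2 of control mock scored 12.2 and array number 2 of dSTING RNAi dsDNA scored -12.5, against -3.05 to 5.55 for the other 6. These 2 arrays stood apart, and where a named value turns sign or moves by over 1.5 times without them, the value without them is given too. Whether paired arrays are separate cultures is not stated in the labels, and p-values then measure only the spread between arrays, which may be technical.

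Hex-A encodes the hexokinase that traps glucose as glucose 6-phosphate. Its intensity was 102 and 96.5 in the control mock arrays (numbers 1 and 2), 101 and 91.0 in the control dsDNA arrays, 110 and 103 in the dSTING RNAi mock arrays, and 97.3 and 92.2 in the dSTING RNAi dsDNA arrays. The highest array was 1.21 times the lowest, and the highest pair was dSTING RNAi mock, whose arrays both lay above those of every other group. Pfk encodes phosphofructokinase, the committed and most regulated step of the pathway. Its intensity was 131 and 151 in control mock, 114 and 118 in control dsDNA, 143 and 131 in dSTING RNAi mock, and 136 and 107 in dSTING RNAi dsDNA. Both control dsDNA arrays lay below both control mock arrays, while the dSTING RNAi dsDNA arrays lay far apart, number 2 being the lowest of all 8.

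Tpi encodes triose phosphate isomerase, which interconverts both triose products of the split sugar. It read 496 and 534 in control mock, 438 and 483 in control dsDNA, 504 and 513 in dSTING RNAi mock, and 531 and 428 in dSTING RNAi dsDNA. As for Pfk, control dsDNA lay below control mock without overlap, and the 2 dSTING RNAi dsDNA arrays held the second highest and the lowest value. Gapdh1 encodes one of the glyceraldehyde 3-phosphate dehydrogenases, the step that yields NADH. It read 351 and 433 in control mock, 306 and 343 in control dsDNA, 351 and 324 in dSTING RNAi mock, and 367 and 242 in dSTING RNAi dsDNA. It had the widest spread of the 8 probe sets, the highest array being 1.79 times the lowest, against a median of 1.32 over the 4189 brighter probe sets. Gapdh2, its paralog, is not analysed here, and cross-hybridisation between the paralogs was not tested.

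Pgk encodes phosphoglycerate kinase, the first ATP-yielding step. It read 157 and 188 in control mock, 142 and 169 in control dsDNA, 168 and 154 in dSTING RNAi mock, and 167 and 129 in dSTING RNAi dsDNA, and the 4 groups overlapped. Eno encodes enolase, which makes phosphoenolpyruvate. It read 1226 and 1169 in control mock, 1108 and 1318 in control dsDNA, 1182 and 1126 in dSTING RNAi mock, and 1164 and 1077 in dSTING RNAi dsDNA. The highest array was control dsDNA number 2 and the lowest dSTING RNAi dsDNA number 2, and both dsDNA groups overlapped their mock groups. The probe sets of Tpi and Eno carry the Affymetrix ending _s_at, given where probes may match more than a single transcript or gene.

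Pdk, the kinase gene at the pyruvate switch, gave different pictures from its 2 probe sets. The probe set 1629515_at read 8.55 and 9.76 in control mock, 9.51 and 8.31 in control dsDNA, 9.63 and 8.66 in dSTING RNAi mock, and 11.7 and 9.04 in dSTING RNAi dsDNA. dSTING RNAi dsDNA number 1 was the highest, and each dsDNA group overlapped its mock group. The probe set 1640801_at read 4.90 and 4.52 in control mock, 6.59 and 6.61 in control dsDNA, 4.88 and 5.04 in dSTING RNAi mock, and 5.34 and 6.01 in dSTING RNAi dsDNA. In it all 4 dsDNA arrays lay above all 4 mock arrays. Both probe sets were dim, and 1640801_at had a mean log2 level of 2.69, under the level of 3.

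**Figure D1:**
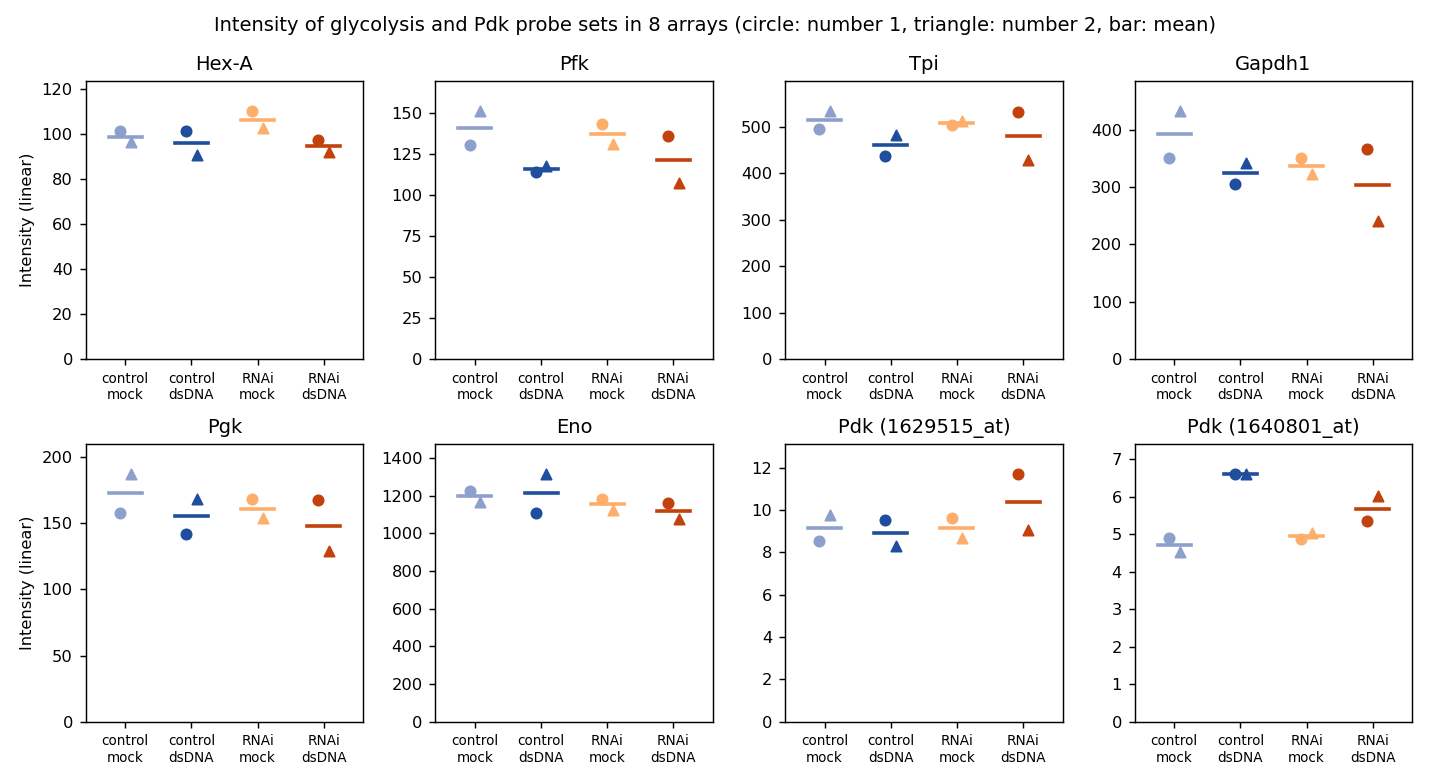
Linear intensity of each of the 8 probe sets on its own axis starting at 0, by group, with a circle for array number 1, a triangle for number 2 and a bar for the group mean. Pfk, Tpi, Gapdh1 and Pgk had their highest value in control mock number 2 and their lowest in dSTING RNAi dsDNA number 2, whereas Pdk 1640801_at was higher in all 4 dsDNA arrays.

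In control cells with dsDNA, Pdk 1640801_at had a mean above that of mock and 5 of the 6 enzymes had means below it, and none of these differences passed the test. Pdk 1640801_at had a mean intensity of 6.60 ± 0.015 with dsDNA and 4.71 ± 0.27 with mock (SD, n = 2 each), a ratio of 1.40. Its log2 difference was 0.41 (SE 0.06, 95% interval 0.26 to 0.57), with an unadjusted limma p of 0.000769. Adjusted over all 18769 probe sets with Benjamini-Hochberg, the limma p was 0.844, so it was not called. The other Pdk probe set had -0.04 (SE 0.14, interval -0.38 to 0.31). Pfk was at 116 ± 2.44 against 141 ± 14.5 (SD, n = 2 each), a log2 difference of -0.28 (SE 0.13, interval -0.61 to 0.05). Gapdh1 had -0.27 (SE 0.22), Tpi -0.16 (SE 0.11), Pgk -0.15 (SE 0.16) and Hex-A -0.04 (SE 0.07), while Eno had 0.01 (SE 0.09). Without the 2 arrays that stood apart, of which this comparison holds control mock number 2, all 6 enzymes had values below 0. They were -0.17 for Pfk (SE 0.07), -0.12 for Gapdh1 (SE 0.10), -0.11 for Tpi (SE 0.08), -0.08 for Hex-A (SE 0.10), -0.03 for Pgk (SE 0.14) and -0.02 for Eno (SE 0.13). Pdk 1640801_at then had 0.37 (SE 0.03) and Pdk 1629515_at 0.05 (SE 0.12). In limma 0 of the 8 probe sets were called, as were 0 of all 18769 (0%), and 1 had an unadjusted p under 0.05, as had 5.25% of all. With trend and robust options 0 were called as well, and 1 had an unadjusted p under 0.05. The groups did not overlap for 4 of the 8: Pdk 1640801_at was higher, where 13.7% of all probe sets lay apart in that direction, and Pfk, Tpi and Gapdh1 were lower, where 15.6% did.

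In dSTING RNAi cells the same treatment gave Pdk 1640801_at a log2 difference of 0.16 (SE 0.06, interval 0.01 to 0.31), from 4.96 ± 0.11 with mock to 5.68 ± 0.48 with dsDNA (SD, n = 2 each). The unadjusted limma p was 0.0403, and the adjusted limma p was 1. Without the 2 arrays that stood apart, the difference of Pdk 1640801_at was 0.09 (SE 0.03, interval 0.00 to 0.18). Hex-A, at 107 ± 5.49 with mock and 94.8 ± 3.63 with dsDNA (SD, n = 2 each), had -0.17 (SE 0.07, interval -0.34 to 0.01). Pfk and Gapdh1 both had -0.18 (SE 0.13 and 0.22), Pgk -0.13 (SE 0.16), Tpi -0.09 (SE 0.11), Eno -0.04 (SE 0.09) and Pdk 1629515_at 0.16 (SE 0.14). Without those 2 arrays Gapdh1 (0.12, SE 0.10), Pgk (0.06, SE 0.14), Tpi (0.06, SE 0.08) and Eno (0.01, SE 0.13) had values above 0, Pfk had -0.01 (SE 0.07), Hex-A -0.13 (SE 0.10) and Pdk 1629515_at 0.33 (SE 0.12). Of the 8 probe sets, limma called 0, again as of all 18769 (0%), with 1 at an unadjusted p under 0.05 (4.37% of all). With trend and robust options 0 were called and 0 had an unadjusted p under 0.05. Groups did not overlap for Pdk 1640801_at, higher (13.2% of all probe sets), or for Hex-A, lower (13.3%).

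The 2 dsDNA comparisons share no array, and the difference between them was tested as an interaction. Pdk 1640801_at had an interaction, the dsDNA difference in RNAi cells minus that in control cells, of -0.25 (SE 0.09, interval -0.47 to -0.04), and -0.28 (SE 0.04) without the 2 arrays that stood apart. With all arrays its unadjusted limma p was 0.0291 and its adjusted limma p 1, so a dependence on dSTING was not shown. The other 7 had interactions from -0.13 (Hex-A) to 0.19 (Pdk 1629515_at), with intervals that all included 0, the widest being that of Gapdh1 at -0.68 to 0.86. Without the 2 arrays these 7 ran from -0.05 (Hex-A) to 0.28 (Pdk 1629515_at), Gapdh1 having 0.24, Tpi 0.17, Pfk 0.16, Pgk 0.08 and Eno, whose sign turned, 0.03. limma called 0 of the 8 and 0 of all 18769 probe sets (0%), with 1 of the 8 at an unadjusted p under 0.05 (4.19% of all). With trend and robust options 0 were called and 0 of the 8 had an unadjusted p under 0.05.

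Averaged over both kinds of cells, with 4 arrays on each side, Pdk 1640801_at was at 6.14 with dsDNA and 4.84 with mock, a ratio of 1.27. Its log2 difference was 0.29 (SE 0.04, interval 0.18 to 0.40), with an unadjusted limma p of 0.000831 and an adjusted limma p of 0.894. It was the only 1 of the 8 probe sets whose mock and dsDNA arrays did not overlap, where 1.11% of all probe sets lay apart in that direction. The second Pdk probe set had 0.06 (SE 0.10, interval -0.19 to 0.31). That interval includes both 0 and 0.29, so in this comparison the probe set neither repeats nor contradicts the reading of the other. For dsDNA in control cells its interval, -0.38 to 0.31, left out the 0.41 of the other. For knockdown in dsDNA cells its interval, -0.16 to 0.54, left out the -0.19 of the other. The intervals of the 2 probe sets overlapped in both cases (0.26 to 0.57 and -0.34 to -0.04 for 1640801_at). Among the enzymes Pfk had -0.23 (SE 0.09, interval -0.46 to 0.00) and a ratio of 0.854. Gapdh1 had -0.22 (SE 0.15), Pgk -0.14 (SE 0.12), Tpi -0.13 (SE 0.08), Hex-A -0.10 (SE 0.05) and Eno -0.01 (SE 0.07). The 8 probe sets had a median of -0.12, with 6 below 0, against a median of 0.00 and 49.9% below 0 over all probe sets. Again limma called 0 of the 8 and 0 of all 18769 (0%), with 1 of the 8 at an unadjusted p under 0.05 (5.38% of all). With trend and robust options 0 were called and 1 of the 8 had an unadjusted p under 0.05.

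**Figure D2:**
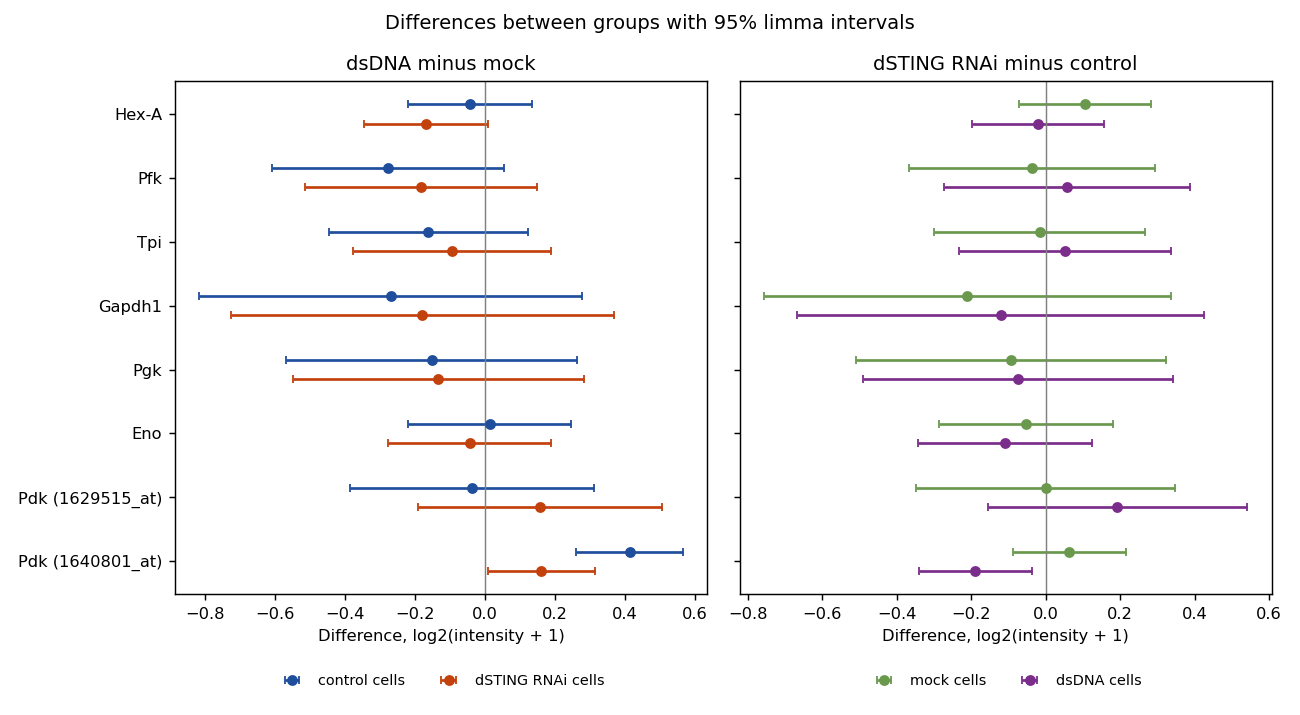
Differences in log2(intensity + 1) with 95% limma intervals, unadjusted for the number of probe sets, for dsDNA minus mock (left) and dSTING RNAi minus control (right). Pdk 1640801_at lies at 0.41 for dsDNA in control cells and 0.16 in dSTING RNAi cells, and the interval of every enzyme includes 0.

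For the mean over both kinds of cells, the values of Gapdh1, Pgk and Tpi moved near 0 without the 2 arrays that stood apart. For these genes control mock number 2 was the highest array and dSTING RNAi dsDNA number 2 the lowest. Leaving both out therefore had to raise the difference, and cannot decide whether it is real. With any single array left out, the values stayed below 0. They were -0.37 to -0.07 for Gapdh1, -0.24 to -0.05 for Pgk and -0.20 to -0.05 for Tpi. Without control mock number 2 and dSTING RNAi dsDNA number 2, the mean dsDNA difference was 0.00 for Gapdh1 (SE 0.07), 0.02 for Pgk (SE 0.10) and -0.02 for Tpi (SE 0.05). Pfk had -0.09 (SE 0.05) and Hex-A -0.10 (SE 0.07), so that Hex-A alone of these 5 kept its value. Eno moved from -0.01 to -0.003 (SE 0.10). The median of the 8 probe sets moved from -0.12 to 0.00. Pdk 1640801_at had 0.23 (SE 0.02, interval 0.16 to 0.29) without them and Pdk 1629515_at 0.19 (SE 0.08, interval -0.08 to 0.46). Residual spread here comes only from the 2 groups that kept 2 arrays. In control dsDNA these read 6.59 and 6.61 for Pdk 1640801_at. Its narrower interval is therefore no firmer evidence. With 3 arrays on each side, limma called 0 of the 8 (adjusted p 0.594 for Pdk 1640801_at). With any single array left out, the mean dsDNA difference of Pdk 1640801_at was 0.25 to 0.32 and its unadjusted limma p 0.000548 to 0.00544.

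**Figure D3:**
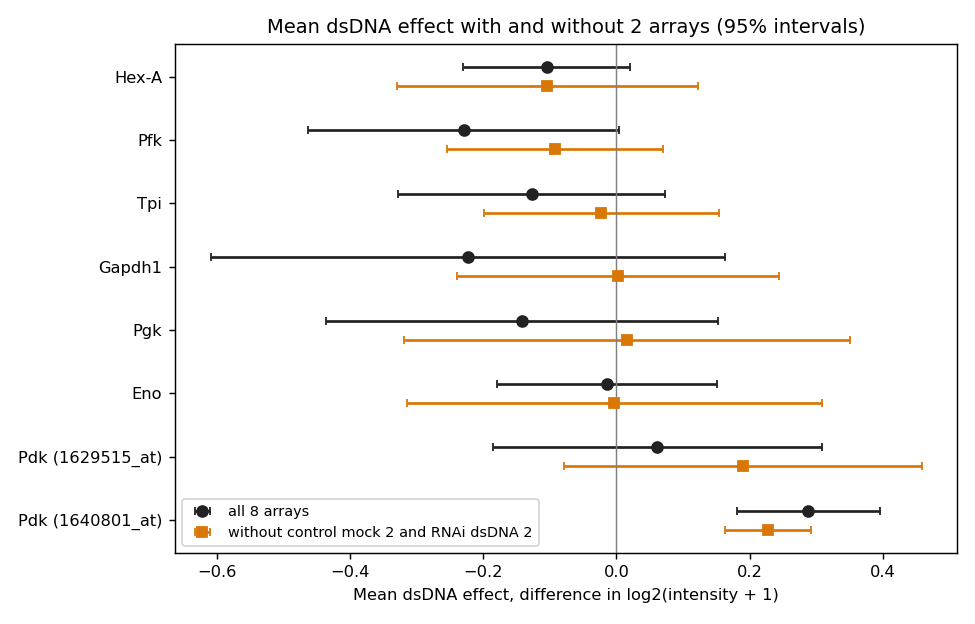
Mean dsDNA effect on each probe set, in log2(intensity + 1), with all 8 arrays (black circles) and without the 2 arrays that stood apart (orange squares), with 95% limma intervals. Gapdh1 moves from -0.22 to 0.00 and Pgk from -0.14 to 0.02, and Pdk 1640801_at stays above 0 at 0.29 and 0.23.

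In dsDNA-treated cells, the comparison that the series names, the knockdown differences of the 6 enzymes lay between -0.12 and 0.06. Eno had -0.11 (SE 0.09), Gapdh1 -0.12 (SE 0.22), Pgk -0.07 (SE 0.16), Hex-A -0.02 (SE 0.07), Tpi 0.05 (SE 0.11) and Pfk 0.06 (SE 0.13). Pdk 1640801_at was at 5.68 ± 0.48 in RNAi and 6.60 ± 0.015 in control cells (SD, n = 2 each), a log2 difference of -0.19 (SE 0.06, interval -0.34 to -0.04). Its unadjusted limma p was 0.0235 and its adjusted limma p 1, and Pdk 1629515_at went the other way at 0.19 (SE 0.14, interval -0.16 to 0.54). limma called 0 of the 8 and 0 of all 18769 probe sets (0%), with 1 of the 8 at an unadjusted p under 0.05 (4.51% of all). With trend and robust options 0 were called and 0 of the 8 had an unadjusted p under 0.05. Pdk 1640801_at was also the only 1 of the 8 whose groups did not overlap, where 11.9% of all probe sets were lower without overlap. Without the 2 arrays that stood apart Pdk 1640801_at had -0.26 (SE 0.03), Pdk 1629515_at 0.36 (SE 0.12), Pfk 0.23 (SE 0.07), Tpi 0.21 (SE 0.08) and Eno -0.05 (SE 0.13). Gapdh1 (0.18, SE 0.10), Pgk (0.11, SE 0.14) and Hex-A (0.02, SE 0.10) turned sign, and limma called 0 of the 8 (lowest adjusted p 0.422). This comparison shares its control dsDNA arrays with the dsDNA comparison in control cells, where the same 2 arrays were the high ones.

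In mock-treated cells the knockdown differences were -0.21 for Gapdh1 (SE 0.22), -0.09 for Pgk (SE 0.16), -0.05 for Eno (SE 0.09), -0.04 for Pfk (SE 0.13), -0.02 for Tpi (SE 0.11) and 0.11 for Hex-A (SE 0.07). The Pdk probe sets had 0.00 (SE 0.14) and 0.06 (SE 0.06). limma called 0 of the 8 and 0 of all 18769 probe sets (0%), 0 of the 8 had an unadjusted p under 0.05 (4.72% of all), and 0 were called with trend and robust options. Over all probe sets limma did not call Sting itself, the RNAi target. Its log2 difference was -3.15 in mock cells, -2.82 in dsDNA cells and -2.99 on the mean. Sting was called in each when only probe sets above a log2 level of 3 were tested. The 0 calls over all probe sets therefore cannot decide whether the far smaller knockdown differences of the 8 are real. Groups did not overlap for Hex-A, higher (13.3% of all probe sets), and Gapdh1, lower (15.6%), which had -0.06 (SE 0.10) without the 2 arrays that stood apart. Without them Pfk (0.07, SE 0.07), Tpi (0.04, SE 0.08) and Pgk (0.03, SE 0.14) turned sign, Eno had -0.09 (SE 0.13), Hex-A 0.07 (SE 0.10), Pdk 1629515_at 0.09 (SE 0.12) and Pdk 1640801_at 0.01 (SE 0.03). Averaged over both treatments the differences ran from -0.17 for Gapdh1 (SE 0.15, interval -0.55 to 0.22) to 0.10 for Pdk 1629515_at (SE 0.10, interval -0.15 to 0.34). There too limma called 0 of the 8 and 0 of all 18769 (0%), with 0 of the 8 at an unadjusted p under 0.05 (4.76% of all) and 0 with trend and robust options. Without the 2 arrays that stood apart, the mean knockdown difference of Gapdh1 was 0.06 (SE 0.07), that of Pfk 0.15 (SE 0.05) and that of Pdk 1640801_at -0.12 (SE 0.02), with adjusted limma p of 0.904, 0.573 and 0.526. Tpi then had 0.12 (SE 0.05), Pgk, which turned sign like Gapdh1, 0.07 (SE 0.10), and Pdk 1629515_at 0.22 (SE 0.08).

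Several of the enzymes shared an order of arrays that the groups do not give. Pfk, Tpi, Gapdh1 and Pgk all had their highest value in control mock number 2 and their lowest in dSTING RNAi dsDNA number 2, an order shared by 546 of the 4189 brighter probe sets (13%), while 629 (15%) had the opposite order. The 4 genes were singled out after their values were seen. Pearson's r between pairs of them was 0.85 to 0.96 over 8 arrays, and 0.56 to 0.87 over the 6 arrays left without those 2. These are descriptions over arrays of 1 jointly deposited table, and r between Gapdh1 and Pgk, 0.96, was the highest. Hex-A, Eno and Pdk 1629515_at did not have this order, and their r with the mean of the 7 probe sets above a log2 level of 3 was 0.35, 0.43 and 0.44. That mean includes each of them. Its r with the first principal component was 0.96, and 0.92 over 6 arrays without those 2, so the mean followed the axis on which they stood apart. What sets that axis was not tested. Pdk 1640801_at had r = -0.87 with Pfk, -0.75 with Tpi, -0.60 with Gapdh1, -0.55 with Pgk and -0.49 with Hex-A. Its r was 0.03 with Eno and -0.21 with the other Pdk probe set. In whole cultures, fewer cells of a type and less RNA per cell cannot be told apart.

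The same order of arrays was looked for in other genes of carbohydrate metabolism. Of all brighter probe sets 13% had it and 15% had the opposite order. Of 16 measured further glycolysis enzymes and paralogs, with 18 probe sets, 7 probe sets lay above a log2 level of 3, and 4 of these had that order. They were Pgi, the isomerase between hexokinase and phosphofructokinase (r = 0.84 with the members' mean), Pglym78, a phosphoglycerate mutase (0.88), Pgm1, a phosphoglucomutase that links glycogen to glycolysis (0.92), and 1 of 2 probe sets of Pgm2a (0.86). Pgm1 read 74.8 and 110 in control mock, 64.2 and 73.6 in control dsDNA, 80.7 and 71.0 in dSTING RNAi mock, and 87.4 and 59.7 in dSTING RNAi dsDNA. It was thus highest in control mock number 2 and lowest in dSTING RNAi dsDNA number 2, a range of 1.84 times. Aldolase, encoded by Ald1, had 2 probe sets that disagreed: 1 had r = -0.91, with the opposite order of the 2 extreme arrays, and the other -0.11. The hexokinase paralogs Hex-C, Hex-t1 and Hex-t2 and the listed pyruvate kinase paralogs lay near the floor, the highest value of any of them being that of CG2964 at 1.95.

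All 4 measured pentose phosphate genes above that level had the same order: Pgls (r = 0.95), Rpi (0.88), Taldo (0.84) and Rpe (0.80). This pathway makes NADPH and ribose from glucose 6-phosphate. Taldo, which encodes transaldolase, read 286 and 339 in control mock, 212 and 305 in control dsDNA, 274 and 256 in dSTING RNAi mock, and 265 and 200 in dSTING RNAi dsDNA. Of 5 glycogen and sugar genes above the level, 2 had the same order. They were Glyp, which encodes glycogen phosphorylase (r = 0.98), and AGBE, the glycogen branching enzyme gene (0.76). Tret1-1, a trehalose transporter gene, had the opposite order with -0.85. Of 13 citric acid cycle genes above the level, 4 had the enzymes' order, ScsbetaG, SdhB, SdhD and Mdh1, and Ogdh, which encodes a subunit of oxoglutarate dehydrogenase, had the opposite (r = -0.96). Elsewhere the order was less frequent. It was held by 1 of 4 probe sets for pyruvate entry to mitochondria (Pdp) and 0 of 2 for the glycerol 3-phosphate shuttle. Of 7 for the listed transcription factors, 1 had it (crc) and 2 had the opposite.

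**Figure D4:**
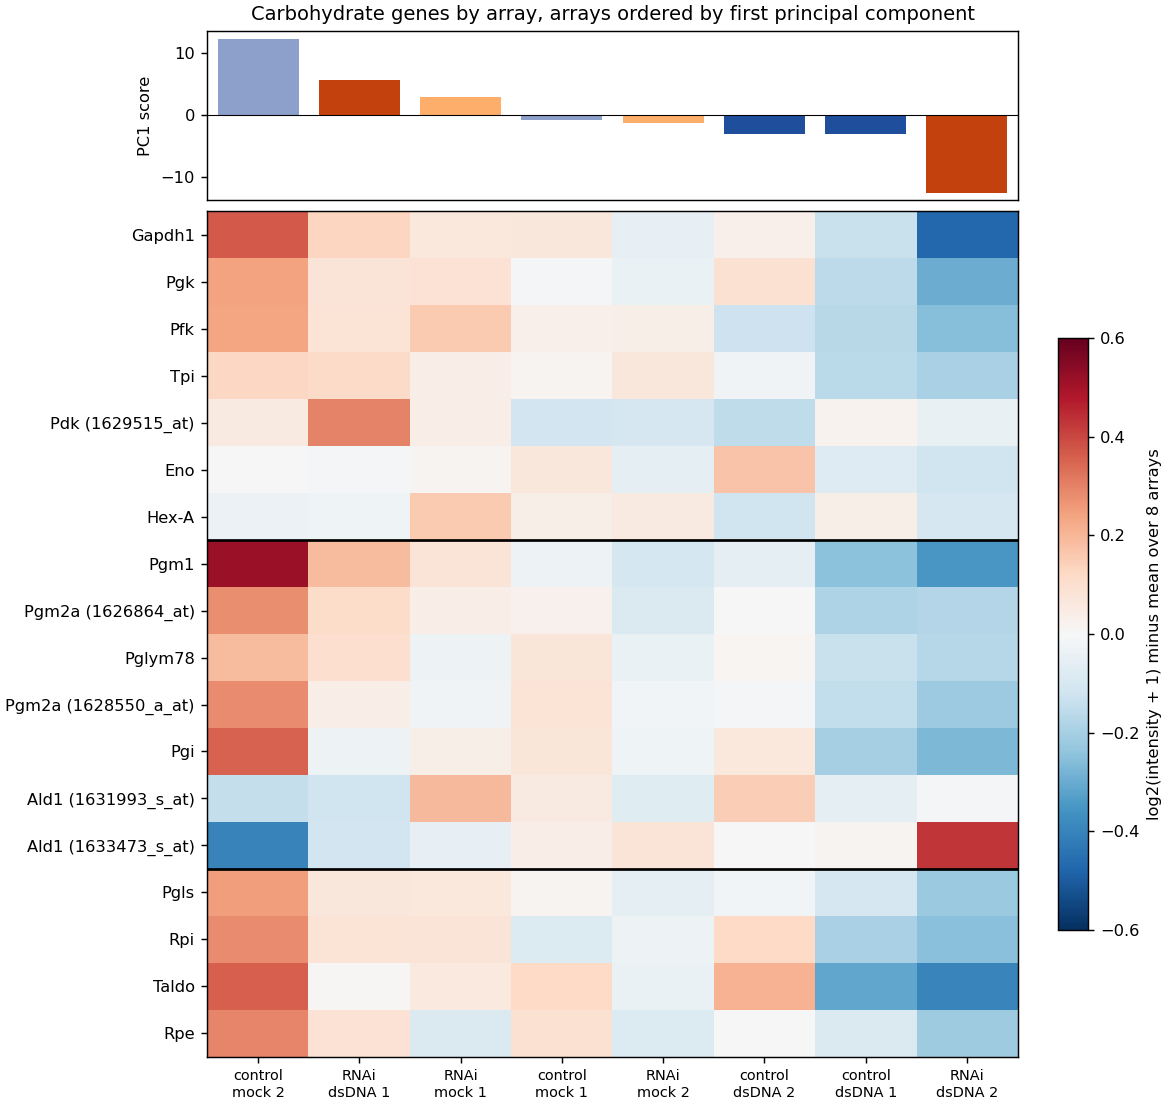
Top, score of each array on the first principal component of the 4189 probe sets above a log2 level of 3, coloured by group (light blue control mock, dark blue control dsDNA, light orange dSTING RNAi mock, dark orange dSTING RNAi dsDNA). Below, log2(intensity + 1) minus the mean over 8 arrays for the members (upper block), further glycolysis genes (middle) and pentose phosphate genes (lower) above that level. Gapdh1, Pgk, Pfk and Tpi run from red in control mock number 2 to blue in dSTING RNAi dsDNA number 2, and Ald1 1633473_s_at runs the other way.

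Genes whose values most resembled the members' mean over the 8 arrays, chosen by the highest Pearson r among 3619 brighter probe sets of 1 gene, were Got1 (0.99), msd1 (0.99), Glyp (0.98), NHP2 (0.98) and UQCR-14 (0.98). Glyp releases glucose units from glycogen, and UQCR-14 encodes a subunit of respiratory complex III. Such likeness was common, since 156 of the 3619 (4.31%) had r over 0.9 and 136 had r under -0.9. With group means removed, so that only differences between arrays of a group counted, the 5 most alike were Vha16-1, Hsp60A, mora, Got1 and msd1, with r from 0.997 to 0.998. With 2 arrays a group, this r rests on 1 difference for each of the 4 groups. Values near 1 are then easily reached by the top 5 of 3619, and no share over all is given for this measure. All these values come from the same 8 arrays.

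Genes around the pathway gave 0 calls in each of the 7 comparisons, with limma over all 18769 probe sets or over the 4189 brighter ones. Over the latter limma called 3 probe sets (0.0716%) for knockdown in mock cells, 3 (0.0716%) in dsDNA cells and 4 (0.0955%) for the mean knockdown, of which 0 were members, and 0 (0%) for the other 4 comparisons. For each list, the 2 genes with the smallest p over the 7 comparisons are given as values. Among further glycolysis genes these were Pfrx, which encodes the enzyme that sets fructose 2,6-bisphosphate, at 0.26 (SE 0.07) for dsDNA in control cells, and CG11249 at -0.11 (SE 0.03) for dsDNA in RNAi cells, both near the floor. Of 13 sugar, glycogen and trehalose genes, Tps1 had an interaction of 0.26 (SE 0.06) and 1 Glut1 probe set 0.24 (SE 0.07) for dsDNA in RNAi cells, also near the floor. Of 3 gluconeogenesis genes Pepck2 had -0.28 (SE 0.07) for knockdown in dsDNA cells, near the floor, and fbp, which encodes fructose bisphosphatase, -0.27 (SE 0.14) for the mean knockdown. For fbp the value was -0.07 without the 2 arrays that stood apart.

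Of 8 listed genes for the entry of pyruvate into mitochondria, 4 were measured. Mpc1, a subunit of the mitochondrial pyruvate carrier, had an interaction of 0.30 (SE 0.16). Pdp, the phosphatase that opposes Pdk, had a mean dsDNA value of -0.19 (SE 0.11), and -0.03 without the 2 arrays. muc and CG7430, which encode subunits of the pyruvate dehydrogenase complex, lay above a log2 level of 3 as well, with 0 of the 4 genes of this list called. In the glycerol 3-phosphate shuttle Gpdh3, near the floor, had -0.12 (SE 0.06) for the mean knockdown (-0.21 without the 2 arrays). For dsDNA in control cells 1 Gpdh1 probe set had 0.30 (SE 0.19). The other Gpdh1 probe set above a log2 level of 3 had means of 7.43 in control mock and 7.75 in control dsDNA. Of pentose phosphate genes Rpe had -0.28 (SE 0.12) for knockdown in mock cells (-0.18 without the 2 arrays) and Taldo -0.25 (SE 0.16) for the mean dsDNA effect, which was -0.09 without the 2 arrays.

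Of 14 citric acid cycle genes, Idh3g had -0.27 (SE 0.09) for dsDNA in control cells, with 20.4 and 20.4 in control mock and 15.2 and 18.6 in control dsDNA, and SdhD -0.23 (SE 0.08) for the mean dsDNA effect, which was -0.13 without the 2 arrays that stood apart. Their unadjusted limma p were 0.0293 and 0.0314, and their adjusted limma p 0.912 and 0.894. Over the 16 probe sets of this list the median of the mean dsDNA effect was -0.05, with 14 below 0, and -0.02 with 10 below 0 without the 2 arrays. ERR, the oestrogen-related receptor that drives glycolytic genes in flies, lay at the floor in most arrays, with a highest value of 1.24. sima, the fly HIF-alpha gene, had 1 probe set near the floor and 1 with values from 5.54 to 8.16. sug, a sugar-responsive factor near the floor, had a mean dsDNA value of 0.19 (SE 0.05, unadjusted limma p 0.00824, adjusted limma p 0.894), and crc, the fly ATF4 gene, -0.14 (SE 0.06), with 371 and 416 in control dsDNA against 429 and 450 in control mock. Without the 2 arrays crc had -0.08. All 4 dsDNA arrays of crc lay below its 4 mock arrays, where 1.34% of all probe sets did so, and all 4 of sug lay above (1.11%). Both genes were named for their small p in this comparison. The separations follow in part from that choice and are no further support. For crc the unadjusted limma p was 0.0533 and the adjusted limma p 0.894. Its nearest arrays read 416 (control dsDNA number 2) and 417 (dSTING RNAi mock number 2).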

How the data were processed

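Intensities were used as the authors deposited them, 1 linear value per probe set and array; per the labels' protocols, biotin-labelled RNA was made with a 3' in vitro transcription kit. Not given in the sources used here are software and normalization. The table holds 18952 probe sets, and after leaving out 183 controls, 18769 were tested. Platform annotation, updated by gene identifier against Release 6 plus ISO1 MT, gave 13647 probe sets 1 gene, 402 several and 4720 none. Sequences and coordinates were not used here.

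Values were analysed as log2(intensity + 1), which understates changes where signal is low. A single limma fit (version 3.58.1, R 4.3.3) used a mean per group over all 8 arrays, and 7 contrasts were taken (4 residual and 1.32 prior degrees of freedom). Tests were two-sided, adjusted with Benjamini-Hochberg over all probe sets of a contrast, at a threshold of 0.05. The fit was tested on simulated data. Intervals are 95% and unadjusted. The number of arrays limits the precision, and over all probe sets limma did not call Sting itself in any knockdown comparison.

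Members, lists and alternatives were chosen with earlier results of these data known. All 10 members, and the 2 genes of each list with the smallest p, were named by rule. Alternatives were a replicate block, quantile normalization, median centring, 2 filters on dim probe sets, log2(intensity + 16), trend and robust options, and leaving out single arrays or the 2 that stood apart.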

Additional observations from a re-analysis of the deposited data

How the results depend on the processing

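Under none of the 16 alternatives did limma call any of the 8 probe sets that it tested in any of the 7 comparisons. The lowest adjusted p of any of them was 0.844 as reported and 0.330 under any alternative, for Pdk 1640801_at with dsDNA in control cells when control dsDNA number 2 was left out. With the replicate number as a replicate block, 0 were called, as were 0 of all probe sets in each comparison. Deviations of same-numbered arrays had correlations of -0.74 to 0.38 between groups. The -0.74 was between control mock and dSTING RNAi dsDNA, which hold the 2 arrays that stood apart. These correlations therefore cannot decide whether the numbers pair the arrays. Of 889 recomputed log2 differences, 71 changed sign, every one from a value whose interval included 0 to another such value: 18 of 56 without the 2 arrays that stood apart, 49 of 448 with single arrays left out and 4 of 56 with quantile normalization. Pdk 1640801_at kept its sign for dsDNA in control cells (0.13 to 0.46) and for the mean dsDNA effect (0.09 to 0.32) under every alternative that kept it (the filter at a log2 level of 3 removes it), the lowest values being those with log2(intensity + 16), which shrinks dim probe sets; with trend and robust options its unadjusted limma p rose to 0.0138 and 0.0149. Where leaving out an array left a group with 1, that array was taken to vary like those of the other groups. Low signal limits both Pdk probe sets. Over all probe sets limma called 0 in each comparison as reported; for the mean knockdown it called 2 with median centring, 3 with trend and robust options and 1 with log2(intensity + 16), and with either filter it called 3, 3 and 4 for knockdown in mock cells, in dsDNA cells and on the mean.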
